A study of Mus musculus with 10 samples.

Results

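The genes described here encode enzymes that build purine and pyrimidine nucleotides from small precursors. They are Cad, Dhodh, Umps and Ctps of the pyrimidine route and Ppat, Gart, Paics, Atic, Impdh1 and Impdh2 of the purine route, 10 genes of the 36161 gene names on the array, taken by name with every one of their 13 probes. RNA of 10 mouse neuroblastomas was measured, each against the same reference RNA made from 11 mouse cell lines. The 5 ALK/MYCN tumours came from untreated mice labelled ALK+/-, MYCN+/- transgenic, which express ALK F1174L, a mutant receptor tyrosine kinase, beside MYCN, on a C57BL/6 x 129X1/SvJ background. The 5 MYCN tumours came from untreated mice labelled MYCN+/- transgenic, on 129X1/SvJ. Both groups thus carry MYCN. The ALK transgene and the strain background go together in these mice and cannot be told apart. Neither ages nor the promoters of the transgenes are given in the sources used here.

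Purine synthesis assembles the ring on an activated ribose in a chain of steps that ends at inosine monophosphate, from which guanine nucleotides are made by oxidation at the IMP dehydrogenases and adenine nucleotides by a separate branch. Pyrimidine synthesis builds the ring first, attaches it to the ribose afterwards and gives uridine monophosphate, and CTP synthase then turns uridine into cytidine nucleotides. Several of these enzymes are known as targets of MYC family transcription factors, and dividing cells, neuroblastoma included, draw on both routes for RNA and DNA.

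The letters CACGTG, the E-box to which MYC family proteins bind, were searched on both strands of RefSeq promoter windows (build GRCm38.p6, 250 bases before to 50 after a start of the gene). Windows were matched by symbol for 9 of the 10 genes, 11 windows in all, and 3 of the 11 held the word, against 7.15% of 32851 windows of mouse genes. The start used lies inside the annotated gene for Cad and for the second window of Impdh1 and of Ctps, and at its end for the other windows. The 3 are shown because they are the windows with the word, as the 250 bases before the start, all on the plus strand, with the E-box in capitals. They are Impdh2 (chr9:108560186-108560435), Atic (chr1:71556906-71557155) and Paics (chr5:76951052-76951301).
Impdh2: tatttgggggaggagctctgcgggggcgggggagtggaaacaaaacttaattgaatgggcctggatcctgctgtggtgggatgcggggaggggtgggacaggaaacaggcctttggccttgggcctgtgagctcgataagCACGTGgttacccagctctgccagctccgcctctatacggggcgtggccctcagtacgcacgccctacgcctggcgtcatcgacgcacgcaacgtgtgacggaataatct
Atic: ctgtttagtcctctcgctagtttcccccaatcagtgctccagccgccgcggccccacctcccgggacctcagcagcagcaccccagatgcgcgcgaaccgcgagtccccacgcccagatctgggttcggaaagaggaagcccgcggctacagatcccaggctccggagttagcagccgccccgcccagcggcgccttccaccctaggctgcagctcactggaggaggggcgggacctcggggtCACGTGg
Paics: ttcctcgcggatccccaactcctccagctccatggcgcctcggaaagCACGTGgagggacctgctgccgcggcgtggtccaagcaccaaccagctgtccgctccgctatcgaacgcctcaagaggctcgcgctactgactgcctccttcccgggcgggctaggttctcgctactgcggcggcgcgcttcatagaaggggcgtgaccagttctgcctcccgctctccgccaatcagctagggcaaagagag
The E-box begins 110 bases before the start of Impdh2, 7 before that of Atic and 203 before that of Paics. Of these 3 genes, Impdh2 fell in ALK/MYCN tumours, while Atic and Paics did not pass the test. Paics and Ppat lie head to head on chromosome 5, and their annotated ends overlap by 277 bases. The other words searched, on both strands, were CACGCG, in 0 of the 11 windows against 9.27% of all, and GGGCGG, in 10 of the 11 against 35.7% of all. A match of letters is a description and not a binding site.

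Values are log2 ratios, tumour signal over reference signal, for one probe each, so that 0 stands for equal signal in both. All 13 probes of the 10 genes were well above background on all 10 arrays, and none had a missing value. Tumour RNA gave a signal well above background at 53.8% to 58.7% of spots, and the number of arrays limits the precision. Of the 8 markers of sympathetic neuroblasts, such as Hand2 and Dbh, all were measured above the background, and 2 of them, Th and Isl1, were higher in ALK/MYCN tumours. The scaling matters for that list. After scaling of the arrays 1 marker was lower and none higher, while with Cy3 alone 4 were higher and none lower. With spike-in centring 3 were higher, and 1 was higher with median centring and in the scanner-processed signals, with none lower in these. Some tumours stood apart by markers of other tissues. The mean of 3 adrenal cortex genes, centred per gene, was 4.12 in ALK/MYCN 3 and at most -0.248 in every other tumour, and the mean of 3 skeletal muscle genes lay between -1.29 and -1.01 in the ALK/MYCN tumours, against 5.26 in MYCN 2 and 2.05 in MYCN 1. For 3 adipocyte genes the mean was 2.44 in ALK/MYCN 3 and at most -1.49 in the other ALK/MYCN tumours, against 4.06 in MYCN 4 and -0.999 to 1.19 in the other MYCN tumours. MYCN 4 was also the highest for fibroblast genes. Of 6 muscle and 4 adipocyte genes listed, 3 each were tested, and several entered through the MYCN arrays. Myh1 was well above background on 0 of 5 ALK/MYCN and 5 of 5 MYCN arrays, and Adipoq on 2 and 5. For Acta1 it was 5 and 5. The low ALK/MYCN means of these lists are thus partly values near background. Among the alternatives tried, a stromal covariate was the mean of endothelial, macrophage and fibroblast markers, and ALK/MYCN 3, MYCN 2 and MYCN 5, the 3 tumours, were left out together, with MYCN 4 kept.

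Levels of the synthesis genes were compared between tumours that express mutant ALK beside MYCN and tumours of MYCN alone. In ALK/MYCN tumours, 4 of the 10 genes were lower by limma (adjusted p under 0.05) and none was higher: Umps of the pyrimidine route, and Gart, Impdh1 and Impdh2 of the purine route. Over the array 12.2% of 22234 genes were lower by the same test and 14.2% higher, 26.5% in either direction. The changes were modest, with ALK/MYCN levels at 0.608 of the MYCN level for Umps, 0.718 for Impdh2, 0.750 for Gart and 0.764 for Impdh1. For Umps the size depends on the probe, at 0.864 with its second probe. The other 6 genes had differences between -0.26 and 0.019 and did not pass. The median difference of the 10 genes was -0.24, against -0.0037 over all genes tested. These calls depend on how the arrays were centred. When arrays were centred on their spike-in control spots instead, the all-gene median went to 0.21 and that of the 10 genes to -0.036, and with it none of the 10 passed. Spike-in centring moves all genes of an array by the same amount, so the gap between the 2 medians, -0.24, stays by construction. With median centring in place of loess the gap was -0.21. Since each tumour is a mixture of cells, fewer cells of a type and less RNA per cell cannot be told apart.

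**Figure D1:**
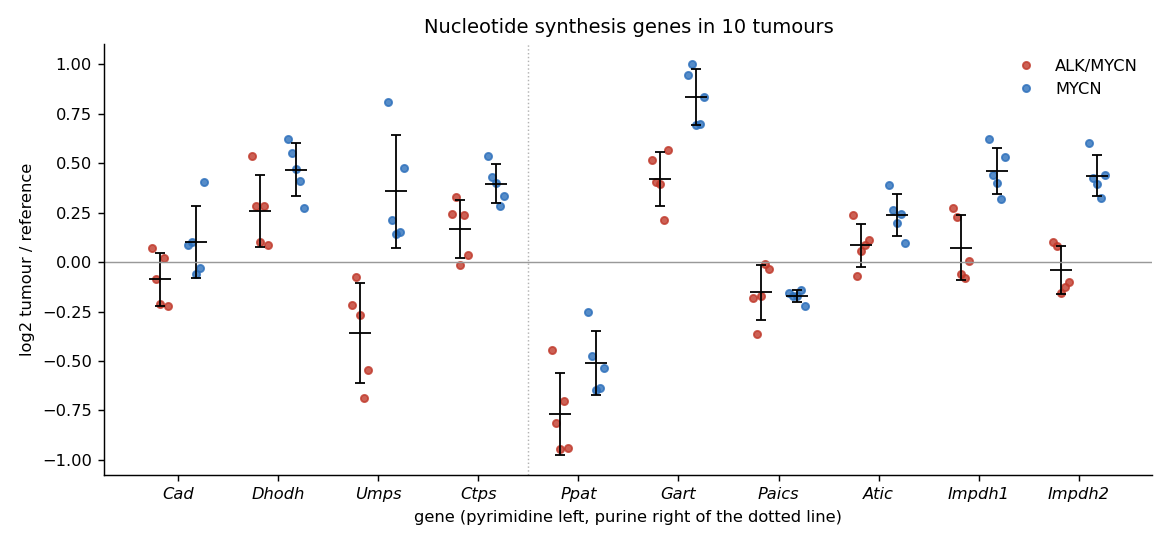
Log2 ratio of tumour over reference (y axis) for the 10 synthesis genes (x axis, pyrimidine genes left and purine genes right of the dotted line). Points are the 5 ALK/MYCN tumours (red, left of each pair) and the 5 MYCN tumours (blue, right), and black marks give mean and SD. The groups do not overlap for Umps, Gart, Impdh1 and Impdh2, and with spike-in centring none of the 10 genes passed the test.

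The pyrimidine genes were lower at 1 of their 4 members. Cad encodes the large enzyme that carries out the opening 3 reactions of pyrimidine synthesis, Dhodh the mitochondrial dehydrogenase of the next step, and Umps the enzyme that attaches the ring to ribose and yields uridine monophosphate. Ctps encodes CTP synthase.

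Umps was represented by the probe A_55_P2185273 (build mm9, chromosome 16, 33956683 to 33956742), which starts at base 1574 of its transcript. It read -0.22, -0.075, -0.27, -0.69 and -0.55 in ALK/MYCN 1 to 5, against 0.81, 0.21, 0.14, 0.15 and 0.48 in MYCN 1 to 5. All ALK/MYCN tumours lay below all MYCN tumours, with MYCN 1 the highest of all. The ALK/MYCN mean was -0.36 ± 0.25 and the MYCN mean 0.36 ± 0.29 (SD, n = 5 each), a fall of 0.72 on the log2 scale (difference -0.72 ± 0.16, SE, limma adjusted p = 0.00963). Genes with such separated groups, lower in ALK/MYCN, made up 8.62% of the 22143 genes with a value on every array. The second Umps probe, A_52_P197627, lies further downstream, at base 3042 of the transcript. There the values were 0.60, 0.53, 0.46, 0.58 and 0.50 in ALK/MYCN 1 to 5, against 0.77, 0.82, 0.65, 0.61 and 0.87 in MYCN 1 to 5. This probe fell as well, again without overlap, but by less, -0.21 ± 0.07 (SE, adjusted p = 0.0483 in limma over 30857 probes). The size of the Umps difference thus depends on the probe, at -0.46 as the mean over both, while its direction does not. The call for the gene was lost with spike-in centring (-0.51, limma adjusted p = 0.0528).

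Cad, measured by 1 probe, was at 0.070, -0.086, -0.21, 0.021 and -0.22 in ALK/MYCN 1 to 5, against 0.088, 0.10, -0.058, -0.029 and 0.41 in MYCN 1 to 5. The groups overlapped, and MYCN 5 was the highest of the 10 tumours. The difference of -0.19 ± 0.10 (SE, limma adjusted p = 0.199) had a 95% interval of -0.41 to 0.038. It was -0.11 without MYCN 5, -0.055 without that tumour, ALK/MYCN 3 and MYCN 2, and -0.36 with the stromal covariate. Dhodh was at 0.54, 0.28, 0.10, 0.28 and 0.087 in ALK/MYCN 1 to 5 and at 0.62, 0.55, 0.47, 0.41 and 0.28 in MYCN 1 to 5. ALK/MYCN 1 lay among the MYCN tumours. Its difference was -0.21 ± 0.10 (SE, limma adjusted p = 0.157), with a 95% interval of -0.43 to 0.017.

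Ctps came close to the threshold. It read 0.25, 0.33, -0.013, 0.24 and 0.035 in ALK/MYCN 1 to 5, against 0.54, 0.43, 0.40, 0.28 and 0.34 in MYCN 1 to 5. ALK/MYCN 2 was above MYCN 4 and otherwise the groups were apart. The difference was -0.23 ± 0.084 (SE, limma adjusted p = 0.0685, 95% interval -0.42 to -0.043 before adjustment). Ctps passed in 3 of 24 alternatives. These were Cy3 alone (limma adjusted p = 0.0416), the stromal covariate (0.0391) and the removal of ALK/MYCN 2, the overlapping tumour (0.0483). Median centring in place of loess left a difference of -0.12 (limma adjusted p = 0.373). Centring on the spike-ins left -0.021 (0.881).

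The paralogue Ctps2, which encodes a second CTP synthase, went the other way. It was at -0.19, -0.047, 0.12, 0.12 and 0.045 in ALK/MYCN 1 to 5 and at -0.31, -0.42, -0.18, -0.13 and -0.38 in MYCN 1 to 5, so that ALK/MYCN 1 lay within the MYCN range and the others above it. It rose by 0.29 ± 0.085 (SE, limma adjusted p = 0.0292). Another Ctps2 probe rose by 0.78 ± 0.10 (adjusted p = 9.90e-04 in limma over probes), and the remaining one was not well above background on any array. At gene level the Ctps2 call was lost with slide as a block (adjusted p = 0.103) and without each of ALK/MYCN 3, ALK/MYCN 4, ALK/MYCN 5, MYCN 1, MYCN 2 and MYCN 5 (limma adjusted p between 0.0544 and 0.0664). Without ALK/MYCN 3, MYCN 2 and MYCN 5 together it was 0.19 (adjusted p = 0.222), and as the mean over probes 0.54 (adjusted p = 0.00159). The balance of the 2 paralogues was tested directly, as Ctps minus Ctps2 within each tumour. This balance is unchanged by a shift of all genes of an array by the same amount, but not by loess. It averaged 0.16 ± 0.24 over ALK/MYCN tumours and 0.68 ± 0.18 over MYCN tumours (SD, n = 5 each), a gap of -0.52 (exact permutation test of the tumour labels, two-sided, p = 0.0159, also 0.0159 adjusted over the 2 paralogue pairs). The test can give no p below 0.00794. The gap was -0.51 with median centring in place of loess. On slides 1, 2 and 3 the difference was -0.48, -0.27 and -0.72.

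The purine route divides into the ring-building steps and the branch to guanine nucleotides. Ppat encodes the amidotransferase of the committed step. Gart encodes a trifunctional enzyme of 3 later steps and Paics a bifunctional enzyme that carries the chain on, and Atic encodes the bifunctional enzyme that closes the ring to inosine monophosphate. Of these 4 ring-building genes, 1 fell.

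Gart was measured by the probe A_51_P436201 (mm9, minus strand, chr16:91624630-91624689), whose sequence is printed because this single probe carries the result.
Gart probe: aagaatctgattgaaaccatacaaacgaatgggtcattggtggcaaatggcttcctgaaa
It read 0.52, 0.40, 0.40, 0.21 and 0.57 in ALK/MYCN 1 to 5, against 0.95, 1.00, 0.69, 0.70 and 0.83 in MYCN 1 to 5. The groups were apart, with ALK/MYCN 5 and MYCN 3 nearest to each other. The ALK/MYCN mean was 0.42 ± 0.14 and the MYCN mean 0.84 ± 0.14 (SD, n = 5 each), and Gart fell by 0.42 on the log2 scale (difference -0.42 ± 0.091, SE, limma adjusted p = 0.00935). Gart did not pass with median centring in place of loess (-0.27, limma adjusted p = 0.0916), and again when spike-ins set the centre (-0.21, adjusted p = 0.180).

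Ppat read -0.45, -0.81, -0.95, -0.70 and -0.94 in ALK/MYCN 1 to 5, against -0.25, -0.47, -0.65, -0.64 and -0.54 in MYCN 1 to 5. ALK/MYCN 1 was above 4 of the MYCN tumours, and the other ALK/MYCN tumours were below all of them. The difference of -0.26 ± 0.11 did not pass (SE, limma adjusted p = 0.120) but did without ALK/MYCN 1 (-0.34, adjusted p = 0.0384). The second Ppat probe gave -0.16 ± 0.085 (SE, adjusted p = 0.190 in limma over probes).

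Paics, the neighbour of Ppat, was nearly level between the groups. Its values were -0.18, -0.36, -0.17, -0.010 and -0.037 in ALK/MYCN 1 to 5 and -0.16, -0.17, -0.17, -0.14 and -0.22 in MYCN 1 to 5. The MYCN values were tightly grouped and lay inside the ALK/MYCN range. The difference was 0.019 ± 0.073 (SE, limma adjusted p = 0.874), and its 95% interval, -0.14 to 0.18, leaves out a fall of the size seen for Gart. Atic was at 0.24, -0.072, 0.057, 0.086 and 0.11 in ALK/MYCN 1 to 5 and at 0.39, 0.27, 0.20, 0.24 and 0.096 in MYCN 1 to 5, with overlap. Its difference was -0.15 ± 0.076 (SE, limma adjusted p = 0.166), with a 95% interval of -0.32 to 0.017.

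Both IMP dehydrogenase genes fell. Impdh1 and Impdh2 encode isozymes of the rate-limiting step toward guanine nucleotides, and Impdh2 is known as the form that proliferating cells induce. Impdh2 read 0.10, 0.079, -0.16, -0.13 and -0.10 in ALK/MYCN 1 to 5, against 0.60, 0.42, 0.39, 0.33 and 0.44 in MYCN 1 to 5. Every ALK/MYCN tumour lay below every MYCN tumour, by a clear gap. The ALK/MYCN mean was -0.041 ± 0.12 and the MYCN mean 0.44 ± 0.10 (SD, n = 5 each), and Impdh2 fell by 0.48 (difference -0.48 ± 0.078, SE, limma adjusted p = 0.00250). The second Impdh2 probe, which shares 54 of its bases with this one and so is not a separate measurement, gave -0.49 ± 0.075. Of the 10 genes, Impdh2 had the smallest adjusted p. It passed under each alternative but spike-in centring (-0.27, adjusted p = 0.0726).

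Impdh1 read 0.27, 0.23, -0.061, -0.080 and 0.0054 in ALK/MYCN 1 to 5, against 0.62, 0.44, 0.40, 0.32 and 0.53 in MYCN 1 to 5. The groups were apart, with ALK/MYCN 1 and MYCN 4 the nearest pair. The difference was -0.39 ± 0.093 (SE, limma adjusted p = 0.0135), and it was lost with median centring (-0.25, adjusted p = 0.103), spike-in centring (-0.18, adjusted p = 0.275) and Cy3 alone (-0.32, adjusted p = 0.0646). The balance of the 2 genes was tested as well. Impdh2 minus Impdh1 averaged -0.11 ± 0.048 over ALK/MYCN tumours and -0.024 ± 0.037 over MYCN tumours (SD, n = 5 each), a gap of -0.090 (exact permutation test, two-sided, p = 0.0159, adjusted over the 2 pairs 0.0159). It was -0.13, -0.11 and -0.069 on slides 1, 2 and 3. The size depends on the signals used, at -0.16 in the scanner-processed signals and -0.23 with Cy3 alone. Median centring in place of loess gave -0.13.

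**Figure D2:**
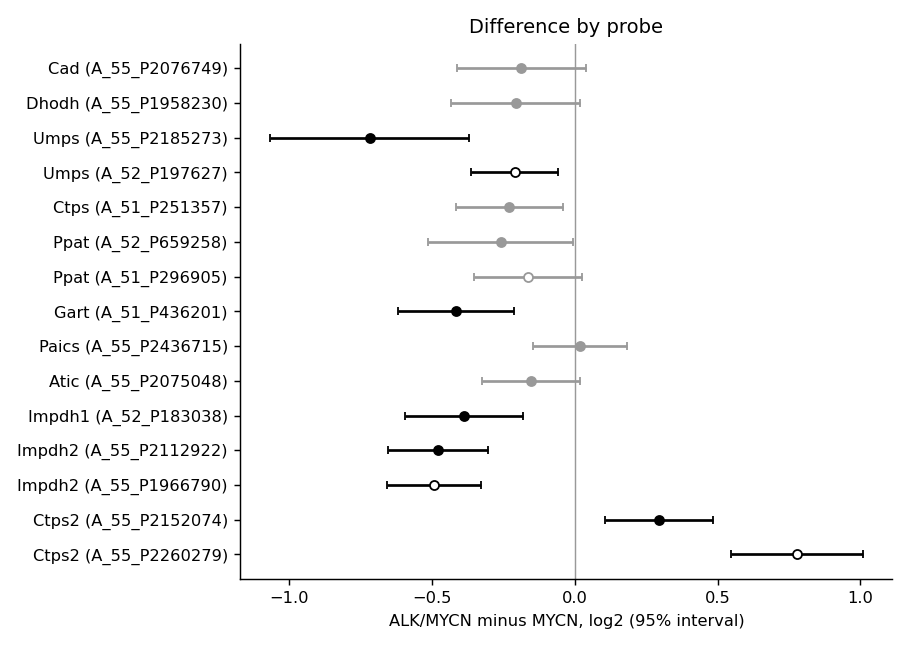
Difference ALK/MYCN minus MYCN on the log2 scale (x axis) with its 95% interval for each kept probe of the 10 genes and of Ctps2 (y axis). Black marks passed at an adjusted p of 0.05 over probes and grey marks did not, and filled marks are the probes used for the gene. The Umps probes give -0.72 and -0.21, and both Ctps2 probes lie above 0.

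Probe by probe, 6 of the 13 probes were lower and none was higher by limma over 30857 probes, where 11.2% of all probes were lower and 13.7% higher. These were both probes of Umps, both of Impdh2 and the single probes of Gart and Impdh1. The arrays lay on 3 slides, each with both groups. On slide 1, with 1 tumour of each group, the difference was -0.88 for Umps, -0.54 for Gart, -0.39 for Impdh1 and -0.52 for Impdh2. On slide 2, with 3 ALK/MYCN and 1 MYCN tumour, it was -0.54, -0.32, -0.27 and -0.39 in the same order, and on slide 3, with 1 and 3, -0.83, -0.28, -0.45 and -0.52. With slide as a block the same 4 genes passed. Because the groups of these genes do not overlap, the sign within each slide follows from that separation and adds no support.

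The other genes of nucleotide metabolism were described from 6 lists of 67 genes, of which 63 were tested. In all, 15 were lower and 6 higher in ALK/MYCN tumours, with a median difference of -0.13. Over all 22234 genes 12.2% were lower and 14.2% higher. With spike-in centring 14 of the 63 were higher and 10 lower, beside 7029 higher and 927 lower of the 22234. The direction of these lists is thus relative to the array as well. Counts of single lists below are to be read beside the shares over all genes.

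Of the 9 remaining genes of de novo purine synthesis, all tested, 3 fell and none rose (1 fell and 3 rose with spike-in centring, and under median centring 2 fell and 1 rose), with a list median of -0.19. Pfas, encoding the amidotransferase that follows the first Gart steps, read -0.11, -0.046, -0.14, -0.32 and -0.19 in ALK/MYCN 1 to 5, against 0.82, 0.49, 0.68, 0.47 and 0.38 in MYCN 1 to 5. With no overlap it fell by 0.73 on the log2 scale (difference -0.73 ± 0.094, SE, limma adjusted p = 8.66e-04). Gmps, encoding GMP synthetase, the step after the IMP dehydrogenases, differed by -0.53 ± 0.10 (SE, limma adjusted p = 0.00481), but by -0.12 as the mean over its probes (adjusted p = 0.480). Adsl, encoding adenylosuccinate lyase, fell by 0.36 (difference -0.36 ± 0.093, limma adjusted p = 0.0198) and lost its call with slide as a block (adjusted p = 0.0545), median centring (-0.21, adjusted p = 0.233) and spike-in centring (-0.15, adjusted p = 0.319), among other settings. Prps1, for the synthesis of the activated ribose, was at -0.19 ± 0.067 (SE, limma adjusted p = 0.0639), and at 0.021 with spike-in centring.

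Salvage and breakdown genes moved both ways, as did genes over the array (14.2% higher and 12.2% lower). Of 15 purine genes of this kind, 3 rose and 3 fell (3 and 2 with spike-in centring, 1 and 2 in the scanner-processed signals). Hprt, encoding the enzyme that recycles hypoxanthine and guanine, was at 0.40, 0.16, 0.052, -0.11 and 0.31 in ALK/MYCN 1 to 5, against -0.64, -0.25, -0.24, -0.39 and -0.54 in MYCN 1 to 5. All ALK/MYCN tumours were above all MYCN tumours, a rise of 0.57 ± 0.12 (SE, limma adjusted p = 0.00684). Aprt, encoding the adenine salvage enzyme and named after its values were seen, rose by 0.39 ± 0.13 (SE, limma adjusted p = 0.0472), with its call lost without any 1 of ALK/MYCN 1, 2, 4 and 5 and MYCN 1, 3 and 4 (adjusted p up to 0.0992 in limma). It was 0.16 with the stromal covariate (adjusted p = 0.468) and 0.26 with Cy3 alone (adjusted p = 0.109), and it passed in 10 of 24 alternatives. Nt5c, a nucleotidase gene, rose by 0.36 ± 0.11 (adjusted p = 0.0389 in limma) and lost its call without any 1 of ALK/MYCN 1, 2, 3 and 5 and MYCN 2, 3 and 5 (up to 0.0848). It passed in 11 of 24 alternatives and was 0.25 without the 3 tumours (adjusted p = 0.194). The AMP deaminase gene Ampd3 fell by 0.82 (-0.82 ± 0.17, SE, limma adjusted p = 0.00691), a call lost with the stromal covariate (adjusted p = 0.0553) and without ALK/MYCN 3, MYCN 2 and MYCN 5 (adjusted p = 0.0522). Nt5e, for the cell surface nucleotidase CD73, was well above background on 2 of 5 ALK/MYCN arrays and on 5 of 5 MYCN arrays, so it entered the test through the group where it was brighter. Its means were -2.46 in ALK/MYCN and -1.33 in MYCN tumours (limma adjusted p = 0.00579, and 0.0515 with the stromal covariate), and the size of the difference is not settled, at -1.13 here and -3.01 in the scanner-processed signals.

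Of 11 pyrimidine salvage and breakdown genes, Ctps2 included, 1 rose and 2 fell (2 and 2 with median or spike-in centring and with Cy3 alone). Upp1, encoding uridine phosphorylase, read -2.11, -1.67, -1.46, -1.89 and -1.74 in ALK/MYCN 1 to 5, against -0.79, -0.69, -0.043, -0.26 and -0.87 in MYCN 1 to 5. It fell without overlap, by 1.24 on the log2 scale (-1.24 ± 0.18, SE, limma adjusted p = 0.00137). Uck2, encoding a uridine-cytidine kinase, fell by 0.68 (-0.68 ± 0.13, adjusted p = 0.00532 in limma; 0.0519 without the 3 tumours). Cmpk1, for the kinase of UMP and CMP, was at 0.31 ± 0.11 (SE, limma adjusted p = 0.0607). It passed in 6 of 24 alternatives, among them median centring (0.45, limma adjusted p = 0.0221) and spike-in centring (0.52, 0.00793). Without the 3 tumours it was 0.22 (limma adjusted p = 0.304).

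**Figure D3:**
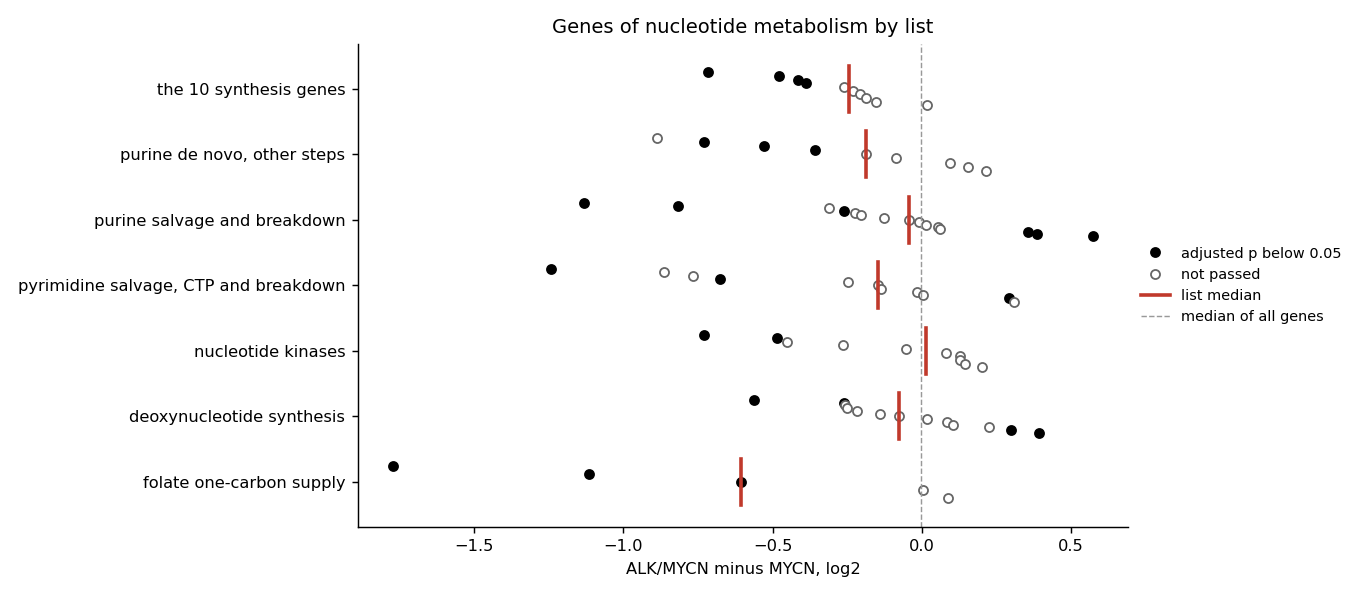
Difference ALK/MYCN minus MYCN on the log2 scale (x axis) for each tested gene of the 10 synthesis genes and of the 6 further lists (y axis). Filled points passed at an adjusted p of 0.05, red bars are list medians and the dashed line is the median of all genes, -0.0037. The folate list has the lowest median, -0.61, and the nucleotide kinase list a median of 0.013 (-0.048 with Cy3 alone).

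Of 10 nucleotide kinase genes, 2 fell and none rose (2 and 2 with spike-in centring). Nme6 differed by -0.48 ± 0.062 (SE, limma adjusted p = 8.55e-04). Nme3 and Nme4, at -0.45 and -0.26, did not pass (adjusted p = 0.0592 and 0.0805 in limma). Of 13 genes for deoxynucleotides, 2 fell and 2 rose (1 and 4 with spike-in centring), beside 12.2% and 14.2% of all genes. Dut, encoding the dUTPase that keeps uracil out of DNA, fell by 0.56 on the log2 scale (-0.56 ± 0.073, SE, limma adjusted p = 9.12e-04). Rrm1, for the large subunit of ribonucleotide reductase, was at -0.26 ± 0.082 (adjusted p = 0.0418 in limma) and lost its call without any 1 of ALK/MYCN 1, 2 and 3 and MYCN 1, 2, 3 and 4 (adjusted p up to 0.0896). It was -0.051 with spike-in centring (adjusted p = 0.648) and -0.15 with median centring (adjusted p = 0.282), and it passed in 9 of 24 alternatives. The p53-inducible small subunit gene Rrm2b rose by 0.30 ± 0.073 and the mitochondrial kinase gene Dguok by 0.39 ± 0.098 (SE, limma adjusted p = 0.0151 and 0.0163). Rrm2b was 0.51 when centred on spike-ins, and 0.78 in the scanner-processed signals, and its call was lost with the stromal covariate (adjusted p = 0.0846). The Dguok call was lost with slide as a block (adjusted p = 0.0504), with replicate number as a block (0.0627) and without the 3 tumours (0.126).

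Folate-bound one-carbon units enter the purine ring at the steps of Gart and Atic. Of 5 genes that supply them, 3 fell and none rose (2 and none with spike-in centring). Shmt2, encoding the mitochondrial serine hydroxymethyltransferase, had the lowest difference of the list (-1.77 ± 0.24, SE, limma adjusted p = 0.00101). Shmt1, encoding the cytosolic enzyme, was at 0.71, 1.10, 0.57, 0.21 and 0.61 in ALK/MYCN 1 to 5, against 2.00, 1.81, 1.59, 1.66 and 1.73 in MYCN 1 to 5. It fell without overlap (-1.12 ± 0.15, SE, limma adjusted p = 0.00101), as did Mthfd1, encoding the trifunctional cytosolic folate enzyme (-0.61 ± 0.11, adjusted p = 0.00373 in limma; -0.40 and 0.0579 with spike-in centring). Mthfd2, encoding a mitochondrial folate enzyme, differed by 0.088 ± 0.16 (SE, limma adjusted p = 0.725).

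Averaged over the 10 synthesis genes, the log2 ratio was 0.11, -0.0086, -0.13, -0.077 and -0.10 in ALK/MYCN 1 to 5, against 0.42, 0.28, 0.18, 0.16 and 0.26 in MYCN 1 to 5. ALK/MYCN 1 was the highest of its group and MYCN 1 the highest of all. Genes of proliferation also differed. Of 10 such genes, 7 fell and none rose (2 and none with median or spike-in centring). The mitotic kinase gene Plk1 differed by -0.68 and the replication helicase gene Mcm2 by -0.46 (limma adjusted p = 0.00188 and 0.00446), while Mki67, at -0.22, did not pass (adjusted p = 0.0889 in limma). Their mean, centred per gene, lay between -0.27 and -0.075 in ALK/MYCN and between 0.030 and 0.36 in MYCN tumours. Its part in the lower values of the synthesis genes was not tested.

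**Figure D4:**
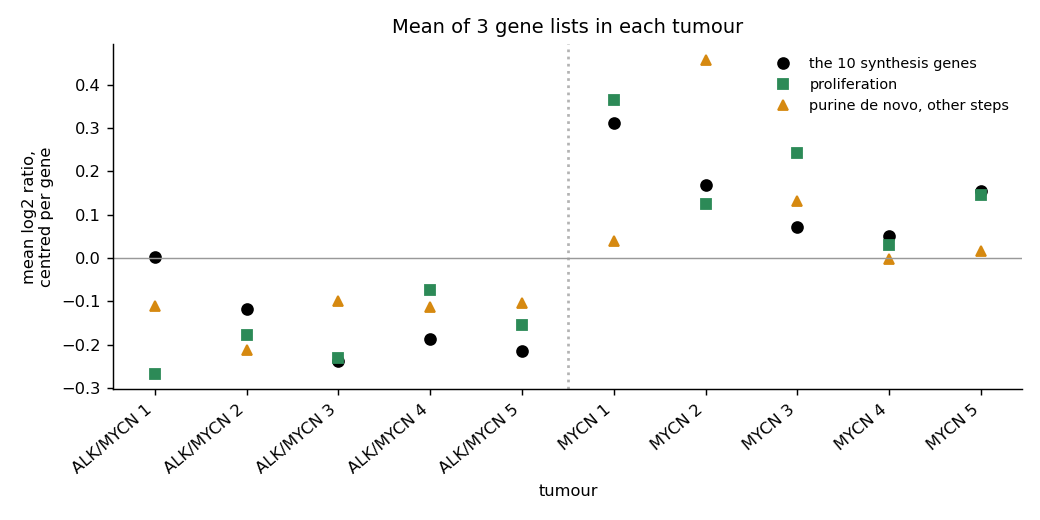
Mean log2 ratio, centred per gene over the 10 tumours (y axis), of the 10 synthesis genes, the 10 proliferation genes and the 9 other genes of purine synthesis, in each tumour (x axis, ALK/MYCN left and MYCN right of the dotted line). The synthesis genes run from -0.24 to 0.0032 in ALK/MYCN and from 0.051 to 0.31 in MYCN tumours, before any spike-in centring.

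Markers of stromal cells also differed. Of 8 endothelial genes, all tested, 6 were lower in ALK/MYCN tumours and none higher (4 and none with spike-in centring), and the list mean lay between -0.84 and 0.10 in ALK/MYCN and between 0.079 and 1.03 in MYCN tumours. Of 8 macrophage genes, 7 tested, 6 were lower and none higher (4 and none with spike-in centring), where the ALK/MYCN means ran from -0.68 to -0.15 and the MYCN means from -0.074 to 0.80. Of 6 fibroblast genes none passed, and their mean ran from -2.25 to 0.19 in ALK/MYCN and from -2.16 to 2.86 in MYCN tumours. Every marker of these 3 lists was above background on at least 1 array. With the mean of the 3 lists as the stromal covariate, the differences of the 4 lower genes were larger in size, -1.02 for Umps, -0.49 for Gart, -0.57 for Impdh1 and -0.63 for Impdh2. With it, 6 of the 10 were lower, as Ctps (-0.36) and Ppat (-0.50) passed too. The covariate itself ran from -1.16 to 0.0092 in ALK/MYCN and from -0.61 to 1.48 in MYCN tumours. Group and covariate are thus partly confounded in that fit. Over the 24 alternatives the differences of Cad ran between -0.36 and 0.021, Dhodh between -0.33 and 9.91e-04 and Ctps between -0.36 and -0.021. Ppat ran between -0.50 and -0.051, Paics between -0.032 and 0.23 and Atic between -0.21 and 0.055. Without the 3 tumours, of which ALK/MYCN 3 and MYCN 2 stood apart by the tissue markers above and MYCN 5 was taken over from earlier results of these data, Impdh2 alone of the 10 passed. The differences of Umps, Gart and Impdh1 were then -0.75, -0.35 and -0.34 (limma adjusted p = 0.0553, 0.0796 and 0.10).

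**Figure D5:**
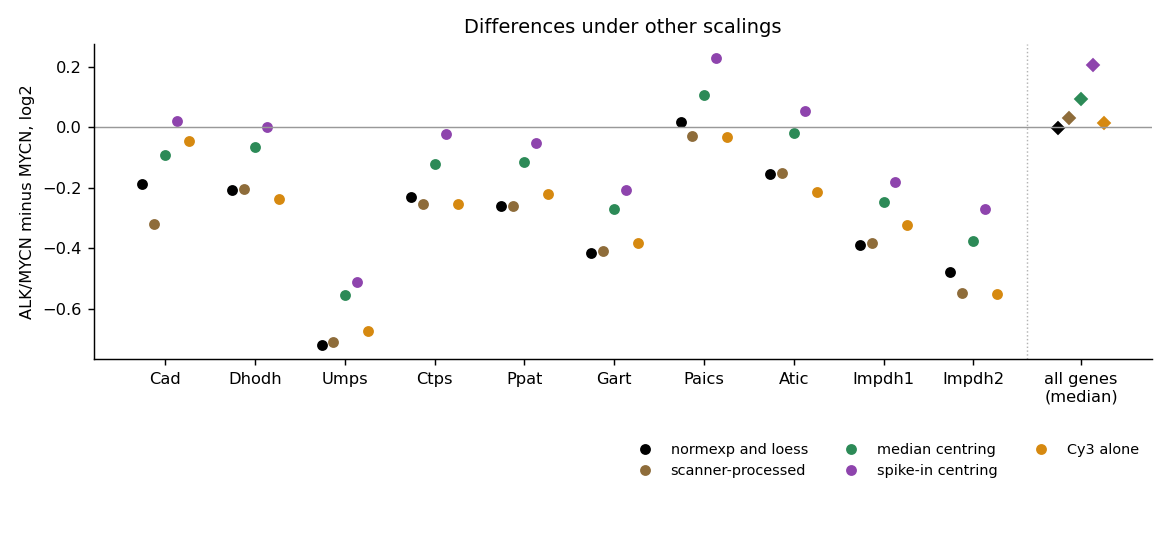
Difference ALK/MYCN minus MYCN on the log2 scale (y axis) for the 10 synthesis genes and the median of all genes (diamonds) under 5 ways of scaling (colours, x axis offsets). With spike-in centring (purple) the median of all genes is 0.21 and the differences move up with it, to 0.055 for Atic, 0.021 for Cad and 9.91e-04 for Dhodh, and Impdh2 is at -0.27.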

How the data were processed

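Per the labels' protocols, tumour RNA was labelled with Cy3 and the reference RNA with Cy5, in the same orientation on every array. The authors deposited spot intensity values which, per the file headers, Agilent Feature Extraction 10.7.3.1 wrote and placed on mm9. The authors' deposited log2 ratios equal log2 of scanner-processed Cy3 over Cy5 intensity within 5.01e-04 and served as a check, with medians of -0.186 to -0.035 per array.

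Mean signals were corrected for median local background (normexp, offset 50), normalised by loess within arrays (control spots at weight 0) and turned to tumour over reference. Outlier spots, 177 to 345 per array, were set to missing. No spot was saturated. Kept were 30857 probes whose tumour channel stood well above background on 5 or more arrays, and the probe of highest mean intensity stood for each of 22234 genes. Of these, 14153 were named by accession, 840 by symbol and 159 by synonym from RefSeq (GRCm38.p6). The other 7082 kept the name on the array, without a RefSeq match. The test was limma 3.58.1 (R 4.3.3) with Benjamini-Hochberg adjustment over all genes, or over all kept probes, and paralogue balances by exact permutation. The limma fit was run on simulated data with independent noise for each gene and no centring step. That run cannot speak to centring or to mixture of tissues. Each array is a separate tumour, per the labels. Alternatives were other background correction and scalings, other filters and probe rules, variance settings, slide and replicate blocks, a stromal covariate and left-out tumours.

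The genes, lists and alternatives were chosen with earlier results of these data known. Named are the 10 genes, Ctps2, of each list up to 4 genes of smallest p, and the 5 genes most alike over tumours; some results under this rule are not reported here.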

Additional observations from a re-analysis of the deposited data

Results flagged for a closer look

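Among 88 groups of 5 tumours examined for a single value far from the others, where chance flags about 1 in 20 groups, 2 held one. Shmt2, encoding the mitochondrial serine hydroxymethyltransferase, was at -2.47 in ALK/MYCN 1, with the other ALK/MYCN tumours between -3.34 and -3.23. The gene's groups did not overlap with that tumour kept. Impdh2 minus Impdh1 was at -0.088 in MYCN 5, with the other MYCN tumours between -0.017 and 0.0089, so that MYCN 5 came close to the ALK/MYCN mean of -0.11.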

How the results depend on the processing

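The 4 lower genes, Umps, Gart, Impdh1 and Impdh2, passed under 20 of the 24 alternatives. The exceptions were median centring, spike-in centring, Cy3 alone and the removal of 3 tumours. Of the 10 genes, 2 were lower with median centring, 0 with spike-in centring and 1 without ALK/MYCN 3, MYCN 2 and MYCN 5, and of their probes 3, 0 and 2. Leaving out each tumour in turn gave 4 to 5 lower genes and 5 to 6 lower probes, with none higher. Over all genes, 3167 were higher and 2722 lower, against 7029 and 927 with spike-in centring, 1349 lower with median centring, 1983 and 1426 with the stromal covariate, 1540 lower without the 3 tumours, and 1770 to 2598 lower and 2358 to 2947 higher on leaving out 1 tumour (1770 without ALK/MYCN 5). Of the 63 related genes, 6 were higher, against 14 with spike-in centring, 3 with slide as a block, 3 without the 3 tumours and 3 to 6 on leaving out 1 tumour (3 without ALK/MYCN 5). The paralogue differences without the 3 tumours, with 4 against 3 tumours, were -0.39 for Ctps minus Ctps2 and -0.11 for Impdh2 minus Impdh1 (exact permutation, adjusted p = 0.0857 each), a design whose smallest possible p is 0.0571. Signs turned for uncalled genes: with spike-in centring Atic at 0.055, Cad at 0.021, Dhodh at 9.91e-04, Prps1 at 0.021 and Snw1 at 0.17; with median centring Snw1 at 0.094; in the scanner-processed signals Paics at -0.027; with Cy3 alone Paics at -0.032; with the stromal covariate Mthfd2 at -0.12 and Zfp213 at -0.21; and on leaving out 1 tumour Paics (-0.017 to 0.072), Mthfd2 (-0.0025 to 0.19), Snw1 (-0.069 to 0.011) and Zfp213 (-0.013 to 0.12). The cause of these changes was not tested. The labels state no pairing of same-numbered tumours. The correlation of their deviations was 0.34 for number 1 and between -0.091 and -0.021 for the others, which cannot decide whether they were paired. With replicate number as a block, 4 of the 10 genes and 5 probes were lower, and over all genes 2523 were higher and 2097 lower. Paralogue balances were not run with blocks or filters. The number of arrays limits the detection of small differences.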

Other observations

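The 5 genes outside the synthesis set named here followed its mean most closely over the 10 tumours, judged by the deviations from the group means. They were Tex10 (r = 0.979), Pa2g4 (0.975), Snw1 (0.971), Nop56 (0.964) and Zfp213 (0.964), picked from 22143 genes for the highest r, so that the values are a description of these 10 tumours. Nop56 encodes a core protein of small nucleolar ribonucleoproteins, Pa2g4 a growth-regulated RNA-binding protein and Snw1 a splicing factor. Between the groups, Nop56 averaged 1.28 in ALK/MYCN and 1.62 in MYCN tumours (difference -0.34 ± 0.077, SE, limma adjusted p = 0.0113), Pa2g4 0.0020 and 0.51 (-0.50 ± 0.079, adjusted p = 0.00207 in limma; -0.21 as the mean over its probes, adjusted p = 0.0584) and Tex10 -0.031 and 0.31 (-0.34 ± 0.10, limma adjusted p = 0.0312). The call of Tex10 was lost without any 1 of ALK/MYCN 2, 3, 4 and 5 and MYCN 1, 2 and 5 (adjusted p up to 0.0713), and none of the 3 passed with spike-in centring. Snw1 and Zfp213 had differences of -0.036 and 0.048 and did not pass (adjusted p = 0.758 and 0.783 in limma).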
